A study of Rattus norvegicus with 8 samples.

Results

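Microglial identity and phagocytic genes were followed in the dentate gyrus (DG) of ovariectomized rats after status epilepticus (SE), with and without replacement of 17β-estradiol (E2). The 10 genes were Spi1, Csf1r, Cx3cr1, P2ry12, Trem2, Tyrobp, Itgam, Ptprc, Cd68 and Aif1, taken by their symbol on the array. They were represented by 14 of the 43379 non-control spots, and all 10 could be tested among 21332 gene names. In the CES rats 5 of them (Cd68, Itgam, Tyrobp, Spi1 and Csf1r) fell, as did 28.3% of all genes tested. On the channel scale every CES rat was below every COS rat for these 5 genes and for 19.8% of all genes. With each rat set against its own median of all genes this held for Cd68, Tyrobp and Csf1r, and for 11.9% of all genes. P2ry12 rose, as did 5.8% of all genes. On the relative scale every CES rat was above every COS rat for P2ry12 and for 17.3% of all genes. Aif1, Cx3cr1, Trem2 and Ptprc did not pass the test.

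Both groups were adult female Sprague-Dawley rats of 150 to 200 g that had been ovariectomized a week before hormone treatment and were seizured with kainic acid. COS rats (labelled AO) received oil and CES rats (labelled AE, treatment EB) received E2 as 17β-estradiol benzoate, with 4 rats in each group. According to the labels the hormone was given as 4 doses of 2 μg every 24 h, 2 before and 2 after SE, kainic acid was given at 16 mg/kg, and pentobarbital ended SE after 5 h. The methods of the study give another dose of kainic acid, place all hormone doses before SE, end SE with diazepam and name different collection times in different paragraphs. Nothing in the files decides between these accounts, so the time between SE and tissue collection is uncertain for every value below. Rats that did not undergo SE are not analysed here, and no value below compares SE with its absence.

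Each channel of 4 two-colour Agilent arrays on 1 slide held the RNA of a single rat, and each array held a pair of rats of the same group. Replicates 1 and 3 of each group were labelled with Cy3 and replicates 2 and 4 with Cy5. Between 30690 and 38553 spots per rat were valid, meaning that the foreground was at least 2 times the local background. Levels are log2 of the background-subtracted signal relative to the median valid spot of the same channel, so 0 is that median. The median log2 difference over all genes was −0.25 (CES minus COS), and differences are therefore also given relative to it. The test was limma, two-sided, in which dye entered as a fixed term and arrays as random blocks. Its p-values were adjusted by Benjamini-Hochberg across the whole array, and a gene was called at an adjusted p under 0.05.

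Microglia are the resident macrophages of the brain parenchyma, and they depend on signals through the receptor Csf1r and on the transcription factor PU.1, the product of Spi1. Surveying microglia carry the receptors P2ry12 and Cx3cr1, which sense nucleotides and the neuronal ligand fractalkine. After injury and seizures microglia change shape, and many take up debris through receptors such as Trem2 and complement receptor 3 and degrade it in lysosomes that contain Cd68. Several of the 10 genes (Spi1, Itgam, Tyrobp, Cd68 and Ptprc) are also used by monocytes, neutrophils and border macrophages. In tissue RNA, fewer cells of a type and less RNA per cell cannot be told apart.

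The probes below show what the array read for a regulator and a complement receptor subunit that fell and for a pair of genes that did not pass the test. Each probe is 60 bases long and is printed in lower case from the deposited design column.
Spi1 probe: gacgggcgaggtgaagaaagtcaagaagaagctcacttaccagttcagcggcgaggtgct
Itgam probe: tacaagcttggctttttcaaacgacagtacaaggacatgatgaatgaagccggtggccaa
Trem2 probe: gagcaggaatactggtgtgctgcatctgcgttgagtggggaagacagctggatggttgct
Aif1 probe: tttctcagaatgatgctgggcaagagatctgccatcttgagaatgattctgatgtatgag
In the rn4 positions given by the files, the Spi1 probe lies on chromosome 3 from 75475250 to 75475309 on the plus strand. The Trem2 probe lies on chromosome 9 from 8059065 to 8059124 on the minus strand. The Itgam probe runs from 187385032 to 187385565 on chromosome 1, and the Aif1 probe from 3715562 to 3716143 on chromosome 20. Both are longer in the genome than the probe itself, so each joins separate genomic stretches. Exon and UTR annotation for this build was not used here.

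Upstream sequence is shown for 4 of the genes because PU.1, itself a member, binds purine-rich boxes of the form GAGGAA in macrophage promoters. Promoters of 300 bases (250 before and 50 after the start) were found for 6 of the 10 genes in the RefSeq table of build GRCr8. The 6 letters were searched on both strands as GAGGAA or TTCCTC, with no other motif, and are in capitals in the 250 upstream bases.
Itgam (chr1:192089342-192089591, plus strand): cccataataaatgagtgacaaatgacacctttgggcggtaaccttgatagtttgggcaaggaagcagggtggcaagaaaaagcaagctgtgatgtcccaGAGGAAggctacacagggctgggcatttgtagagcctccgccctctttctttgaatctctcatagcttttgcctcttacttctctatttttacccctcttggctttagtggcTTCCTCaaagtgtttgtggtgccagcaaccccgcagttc
Cd68 (chr10:54882442-54882691, minus strand): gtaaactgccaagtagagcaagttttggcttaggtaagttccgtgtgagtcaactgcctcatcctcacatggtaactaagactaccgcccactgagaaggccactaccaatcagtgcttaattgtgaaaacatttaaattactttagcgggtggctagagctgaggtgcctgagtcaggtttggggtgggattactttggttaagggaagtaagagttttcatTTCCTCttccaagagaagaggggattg
Trem2 (chr9:20151780-20152029, minus strand): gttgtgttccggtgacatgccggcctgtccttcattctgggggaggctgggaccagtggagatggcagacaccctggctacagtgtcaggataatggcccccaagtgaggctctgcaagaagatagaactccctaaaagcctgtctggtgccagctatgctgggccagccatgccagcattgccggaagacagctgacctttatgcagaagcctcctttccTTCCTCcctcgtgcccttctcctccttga
Cx3cr1 (chr8:128677067-128677316, minus strand): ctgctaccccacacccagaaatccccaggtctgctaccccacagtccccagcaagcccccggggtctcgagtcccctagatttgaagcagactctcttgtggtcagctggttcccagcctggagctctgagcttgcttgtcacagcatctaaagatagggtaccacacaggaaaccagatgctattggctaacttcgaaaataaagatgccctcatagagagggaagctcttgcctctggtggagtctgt
The box was present in the 300 bases of 5 of these 6 genes (Itgam, Cd68, Trem2, Csf1r and Ptprc) and in 27.6% of all 33469 promoters of the table. Cx3cr1 lacked these letters in this window. Counted from the start, its first base was at −151 and −39 in Itgam, at −27 and 5 in Cd68 and at −29 in Trem2. The box was thus found in genes that fell (Itgam, Cd68, Csf1r) and in genes that did not pass the test (Trem2, Ptprc), and a match of letters is not a measured binding site.

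The 10 genes can be read rat by rat before any test. Spi1, the lineage-defining transcription factor, had log2 levels of 1.09, 0.83, 0.75 and 0.18 in COS replicates 1 to 4 and −1.20, 0.12, −0.73 and −1.61 in CES replicates 1 to 4. The groups did not overlap, but CES replicate 2 lay just below COS replicate 4. The probe was well above background in all 4 COS rats and in 2 of 4 CES rats. Spi1 fell by 1.57 ± 0.35 on the log2 scale (SE of the fit, n = 4 rats per group, limma adjusted p = 0.0102), which is a level 2.96-fold lower in CES.

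Csf1r encodes the receptor for the growth factors Csf1 and Il34. Its log2 levels were 2.70, 2.46, 2.79 and 2.37 in the COS rats and 1.32, 1.98, 1.78 and 1.56 in the CES rats. All CES rats were lower, and the spread within a group was small. Csf1r fell by 0.92 ± 0.19 (limma adjusted p = 0.00806), or 1.89-fold. A second Csf1r probe was valid in 1 rat and not well above background in any, so it did not enter the value.

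Cx3cr1, the fractalkine receptor, gave 0.48, −0.13, 0.60 and −0.15 in the COS rats and −0.41, −0.14, 0.05 and −0.42 in the CES rats. The groups overlapped, with the higher COS values in the Cy3 rats. The log2 difference was −0.43 ± 0.19 (limma adjusted p = 0.107) and −0.17 relative to all genes. Cx3cr1 was therefore not called.

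P2ry12, the ADP receptor through which resting microglia extend processes to damaged sites, went the other way. Its log2 levels were 2.28, 1.63, 2.51 and 1.91 in the COS rats and 3.05, 2.44, 3.45 and 3.11 in the CES rats. CES replicate 2 lay just below COS replicate 3, and within each dye both CES rats were above both COS rats. P2ry12 rose by 0.93 ± 0.20 on the log2 scale (limma adjusted p = 0.00833), a level 1.91-fold higher in CES, and by 1.19 relative to all genes.

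Trem2 is a receptor for lipids and apolipoproteins on phagocytic microglia, and Tyrobp (DAP12) is the adaptor through which it signals. Trem2 gave log2 levels of 4.15, 3.79, 4.52 and 3.96 in the COS rats and 3.80, 4.10, 3.73 and 3.73 in the CES rats. The groups overlapped, and the log2 difference of −0.27 ± 0.19 (95% interval −0.70 to 0.16, limma adjusted p = 0.311) was −0.012 relative to all genes. Its sign turned under 4 other scalings and in the Cy5 rats alone, where it lay between 0.035 and 0.13. Tyrobp gave 5.61, 4.97, 5.05 and 4.57 in the COS rats and 2.58, 4.09, 3.39 and 2.75 in the CES rats, without overlap. Tyrobp fell by 1.85 ± 0.34 (limma adjusted p = 0.00553), a level 3.60-fold lower in CES.

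The receptor and its adaptor thus differed in their calls, and the difference between them was not itself tested. Tyrobp has a pair of probes on chromosome 1 of rn4. The probe for its RefSeq transcript lies from 85369110 to 85369169 on the plus strand and changed by −1.86. The other was designed on an expressed sequence tag, lies next to it from 85369042 to 85369101 on the minus strand, and reached a signal well above background in 1 COS and 1 CES rat. Its difference was −0.33, so the value of Tyrobp rests on the first probe.

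Itgam encodes the CD11b chain of complement receptor 3, with which microglia and myeloid cells bind complement-tagged material. Its log2 levels were 2.92, 2.54, 3.17 and 2.69 in the COS rats and 0.31, 2.39, 0.96 and −0.04 in the CES rats. The COS rats stayed within a narrow range, while CES replicate 2 was close to them and the other CES rats were far below. Itgam fell by 1.92 ± 0.45 (limma adjusted p = 0.0119), a level 3.80-fold lower in CES.

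Cd68, a glycoprotein of late endosomes and lysosomes in phagocytes, gave 3.26, 2.54, 2.71 and 2.33 in the COS rats and 0.13, 1.66, 0.53 and −0.24 in the CES rats. The groups did not overlap. Cd68 fell by 2.19 ± 0.38 (limma adjusted p = 0.00489), a level 4.56-fold lower in CES, which was the largest difference among the 10 genes.

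Aif1 encodes Iba1, the actin-bundling protein that is the usual histological marker of microglia. Its log2 levels were 4.41, 3.69, 3.95 and 3.64 in the COS rats and 3.46, 3.35, 4.03 and 3.55 in the CES rats. The groups overlapped, and the log2 difference was −0.32 ± 0.19 (95% interval −0.75 to 0.10, limma adjusted p = 0.212), or −0.068 relative to all genes. With the deposited log2 table and with scaling over spots valid in all rats its sign turned, to 0.070 and 0.077, while with the processed signal it was called lower (−0.56, limma adjusted p = 0.0479).

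Ptprc (CD45), a phosphatase of all nucleated blood-derived cells that microglia carry at low density, was read close to its background, with a foreground 2.37 to 5.56 times it over the 8 rats. Its log2 levels were −0.58, −1.71, −0.86 and −2.41 in the COS rats and −1.86, −2.66, −0.73 and −2.34 in the CES rats. The groups overlapped, and the log2 difference was −0.51 ± 0.26 (95% interval −1.10 to 0.09, limma adjusted p = 0.166). Only 1 of its 3 probes was valid in all 8 rats. The other probes, valid in 7 and 5 rats, differed by −1.29 and −1.62, and with all 3 probes and no filter on valid spots the difference was −1.02 (limma adjusted p = 0.0374).

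**Figure D1:**
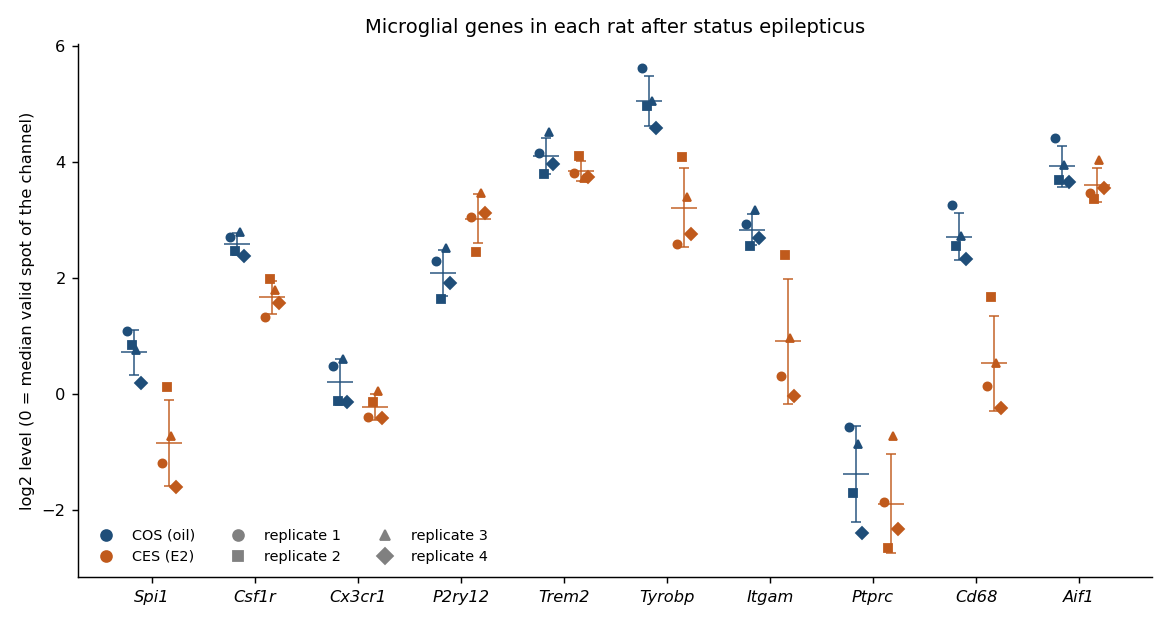
Log2 level of each of the 10 genes in each rat, relative to the median valid spot of its channel, for 4 COS (blue) and 4 CES (orange) rats, with the group mean and SD as lines and bars and a symbol for each replicate number. On this channel scale the CES rats lie below the COS rats without overlap for Spi1, Csf1r, Tyrobp, Itgam and Cd68, and CES replicate 2 (orange square) is the highest CES rat for each of these. Levels of different genes come from different probes and are not comparable with each other.

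Counted together, 5 of the 10 genes were lower in CES where 28.3% of all genes tested were, and 1 was higher where 5.8% of all genes were. After loess and Aquantile normalization 8.64% of all genes were lower and 14.8% higher, and 2 of the 10 genes (Cd68 and Tyrobp) were then called lower and P2ry12 higher. Every CES rat was below every COS rat for 5 of the 10 genes, against 19.8% of all genes, and no gene of the 10 had every CES rat above every COS rat, against 1.61% of all genes. Relative to each rat's median of all genes, every CES rat was below for 3 of the 10 (Cd68, Tyrobp and Csf1r), against 11.9% of all genes, and above for 1 (P2ry12), against 17.3%. On that scale CES replicate 2 overlapped the COS rats for Itgam (1.85, with COS rats from 1.66 to 2.08) and Spi1 (−0.42, with COS rats from −0.55 to −0.047). The median difference of the 10 genes was −0.71, and −0.46 relative to all genes. Relative to all genes the 5 that fell differed less, by −1.93 (Cd68), −1.67 (Itgam), −1.59 (Tyrobp), −1.31 (Spi1) and −0.67 (Csf1r). Ptprc differed by −0.25 on that scale, and P2ry12 by 1.19. The 6 called genes kept their sign under all alternatives in which they were tested.

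Dye and single rats bore on these values. Among the Cy3 rats (2 against 2) the differences were −2.65 for Cd68, −2.41 for Itgam, −2.34 for Tyrobp, −1.88 for Spi1, −1.19 for Csf1r and 0.85 for P2ry12. Among the Cy5 rats, which include CES replicate 2, they were −1.73, −1.44, −1.35, −1.25, −0.65 and 1.01 in the same order. In the Cy5 rats limma called none of the 10 genes, and 2 lower and 0 higher of all 21332 genes. An unadjusted p under 0.05 was found there for 3 of the 10 genes and for 2930 of all genes. Each array held rats of 1 group, so only its random block could enter the fit. Without COS replicate 3, none of the 10 genes passed, with limma adjusted p between 0.0502 (P2ry12) and 0.0968 (Itgam) for the 6 genes called with all rats, which all had an unadjusted p under 0.05. All genes called lower fell to 4.28% in that fit. Without CES replicate 1, Itgam (limma adjusted p = 0.0635) and Spi1 (0.0547) were no longer called, and 11.5% of all genes were called lower.

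**Figure D2:**
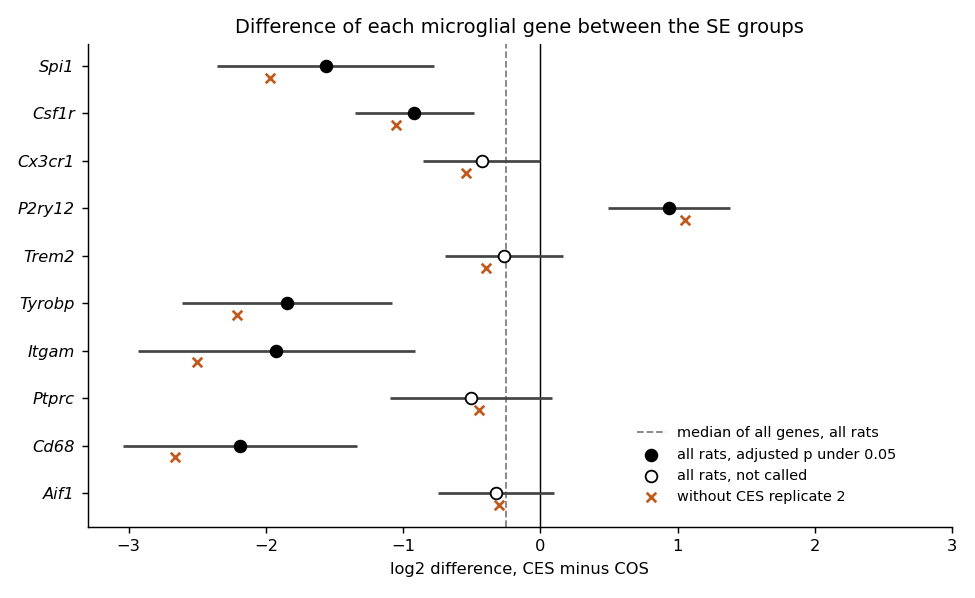
Log2 difference (CES minus COS) of each gene with its 95% interval from limma, filled where the adjusted p is under 0.05, with the median of all genes at −0.25 as a dashed line and the value without CES replicate 2 as a cross. Of the 10 genes, 5 lie at −0.92 or lower and P2ry12 lies at 0.93, while Trem2 and Aif1, whose sign turns under other scalings, lie at the dashed line.

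CES replicate 2 had the highest values of the CES rats in most of these genes. The median of the 10 genes over the median of all genes in the same rat was 1.65, 1.62, 1.45 and 1.74 in the COS rats and 0.14, 1.64, 0.48 and 0.40 in the CES rats. CES replicate 2 thus lay inside the COS range. Its gap to the next CES rat was 0.773 of the CES range, under Dixon's critical value at 95%, so it did not pass that outlier test. It was hybridized to the same array as CES replicate 1, which had the lowest value. Relative to the median of all genes, CES replicate 2 was the highest CES rat for 7 of the 10 genes and for 24.7% of all genes tested.

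Without CES replicate 2 the differences of the called genes were larger, at −2.66 ± 0.20 for Cd68, −2.51 ± 0.20 for Itgam, −2.21 ± 0.25 for Tyrobp, −1.97 ± 0.22 for Spi1 and −1.05 ± 0.19 for Csf1r. Then 6 of the 10 genes were lower, where 32.7% of all genes were, and 1 was higher, where 8.7% of all genes were. The added gene was Cx3cr1, with a difference of −0.54 and a limma adjusted p of 0.0436. P2ry12 was at 1.06 ± 0.20, and Trem2, Aif1 and Ptprc again did not pass.

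**Figure D3:**
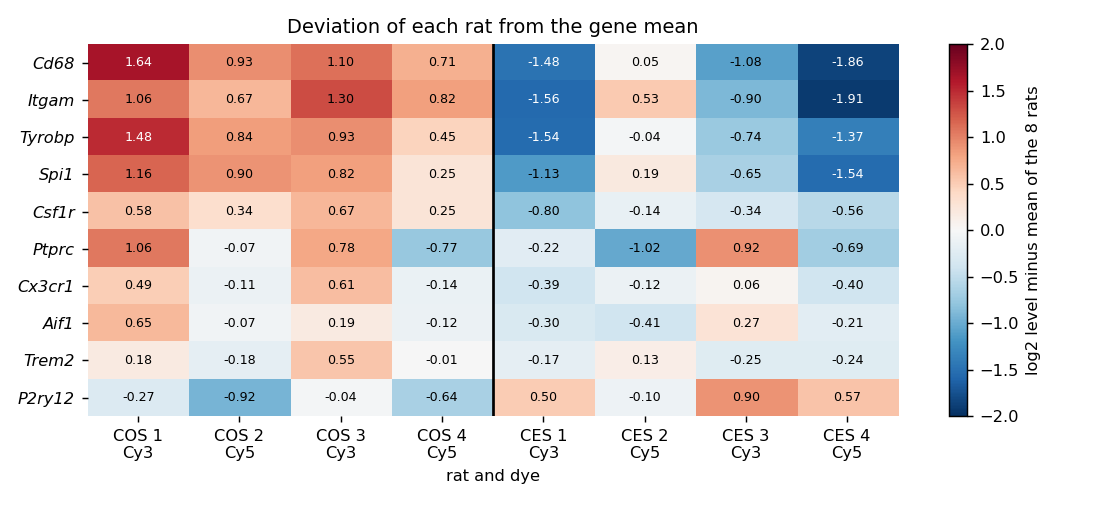
Log2 level of each gene in each rat minus its mean over the 8 rats (colour scale from −2 to 2), with rats in columns by group and dye. Cd68, Itgam, Tyrobp, Spi1 and Csf1r are above their mean in every COS rat and below it in CES replicates 1, 3 and 4, whereas CES replicate 2 lies between −0.14 and 0.53 for these 5 genes.

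The genes were also compared by how they ran across the 8 rats, as a description without a test, since the rats form a pair of groups. Pearson r with the per-rat median of the 10 genes includes each gene in the median it is set against. It was 0.98 for Itgam, 0.97 for Spi1, 0.96 for Tyrobp and Cd68 and 0.93 for Csf1r. It was 0.51 for Cx3cr1, 0.18 for Trem2, −0.17 for Aif1, −0.23 for Ptprc and −0.86 for P2ry12. Outside the 10 genes, the names most like their median were the transcript ENSRNOT00000036927 (r = 0.999), the kinase Tec (0.996), phospholipase Plcd1 (0.995), the actin-associated Tagln2 (0.995) and lamin A/C, Lmna (0.995). All of these were called lower in CES, from −0.93 for the transcript to −2.41 for Tagln2, as were 28.3% of all genes tested. They were picked for likeness to a median that was itself lower in most CES rats. Their direction thus follows from that choice and is not a separate result. Relative to each rat's median of all genes, only Lmna had every CES rat below every COS rat among these 5 names. This held for 11.9% of all genes. The median of the 10 genes on that scale was 1.64 in CES replicate 2 and 1.45 to 1.74 in the COS rats. Overlap of the groups was therefore also set largely by the choice of names.

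Other genes of the microglial programme were taken as 3 lists with 68 genes, of which 60 were on the array and 56 could be tested. Of these 56 genes, 40 were lower in CES (71.4%, against 28.3% of all genes), 2 were higher (against 5.8%) and 14 were not called. Their median difference was −1.23, and −0.98 relative to all genes. Every CES rat was below every COS rat for 38 of the 56, against 19.8% of all genes. Relative to each rat's median of all genes this held for 24, against 11.9% of all genes. On that scale every CES rat was above every COS rat for 4, against 17.3%. Without CES replicate 2 the counts called were again 40 and 2 (32.7% and 8.7% of all genes). They were 26 and 1 without CES replicate 1 (11.5% and 2.46% of all genes). Without COS replicate 3 they were 9 and 0 (4.28% and 1.20% of all genes). Other scalings left between 20 and 24 genes lower, against 8.05% to 10.4% of all genes, and 3 or 4 higher, against 14.3% to 15.7%.

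Of 16 other identity genes tested, 8 were lower and 2 higher, with a median of −0.54. Runx1, a transcription factor of blood and microglial precursors, fell by 2.57 ± 0.39 (limma adjusted p = 0.0039). It lay between 3.12 and 3.78 in the COS rats and was 0.62, 2.25, 0.80 and 0.23 in the CES rats. Itgb2, the CD18 chain that pairs with the product of Itgam, fell by 2.20 ± 0.42 (limma adjusted p = 0.00587). Lcp1, the actin-bundling L-plastin, fell by 1.86 ± 0.28 (limma adjusted p = 0.00394), and its signal stood well above background in 2 of 4 CES rats.

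The 2 higher identity genes were P2ry13 and Selplg, both named because they were the only ones to rise in these lists. P2ry13, an ADP receptor related to P2ry12, stood well above background in none of the COS rats and in 2 of 4 CES rats. Where COS levels below the lowest signal well above background were raised to it, the CES mean was 1.66-fold higher. The CES rats not well above background entered that mean, so the value is not a strict lower bound. The measured log2 difference was 0.92 (limma adjusted p = 0.0116). Selplg, the selectin ligand PSGL-1, rose by 0.80 ± 0.22 (limma adjusted p = 0.0221), and 2 COS and 3 CES rats had it well above background. As with P2ry12, CES replicate 2 was the lowest CES rat for both. Neither was called when a foreground of at least 3 times background was asked for in all rats. That filter left 47 of the 56 programme genes tested, and a gene that it removes is untested.

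Other microglia-enriched genes that fell were the transcription factor Sall1 (−0.59), the fructose transporter Slc2a5 (−0.73) and Fcrls (−1.50), with limma adjusted p of 0.0259, 0.0243 and 0.0217. Olfml3, also enriched in microglia, differed by −0.22 (limma adjusted p = 0.374) and was not called. Tmem119, a surface marker of resident microglia, was well above background in 1 rat, so no difference is given for it. The labelled tissue thus carried the shared markers of microglia and macrophages clearly and Tmem119 at its detection limit.

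Of 14 ligand and signalling genes tested, 11 were lower and none higher, with a median of −1.35. The adaptor Fcer1g (−1.79), the kinase Syk (−1.32) and the growth factor Csf1 (−1.22) were among the genes that fell. By size the first were Vav1, an exchange factor downstream of Syk, which fell by 2.01 ± 0.34 (limma adjusted p = 0.00459), and the phosphatase Ptpn6 (−1.94 ± 0.39, adjusted p = 0.00715). The Vav1 probe was well above background in only 2 of 4 CES rats. The neuronal ligands Cx3cl1 (0.43) and Cd200 (0.22) and the Trem2 ligand Apoe (0.10) were not called.

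Of 26 lysosomal and phagocytic genes tested, 21 were lower and none higher, with a median of −1.24. Lgals3, the galectin of phagocytes, fell by 3.64 ± 0.84 (limma adjusted p = 0.0112). It lay between 6.13 and 6.50 in the COS rats and was 1.78, 5.84, 2.06 and 0.92 in the CES rats, so that CES replicate 2 was near the COS rats. The Fc receptor Fcgr2b fell by 3.28 ± 0.56 (limma adjusted p = 0.0046), and Ncf4, a cytosolic subunit of the phagocyte oxidase, fell by 3.25 ± 0.62 (limma adjusted p = 0.00594). General lysosomal genes were divided: Lamp2 (−0.74), Ctsd (−0.90) and Ctsl1 (−1.25) fell, while Lamp1 (−0.24) and Ctsb (−0.49) were not called. Of the molecules that bridge dying cells to phagocyte receptors, Pros1 fell (−1.70) and Mfge8 (−0.16) and Gas6 (0.54) were not called. Relative to each rat's median of all genes, CES replicate 2 was the highest CES rat for 38 of the 40 programme genes that fell. This held for 40 of the 56 programme genes tested and for 24.7% of all genes.

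**Figure D4:**
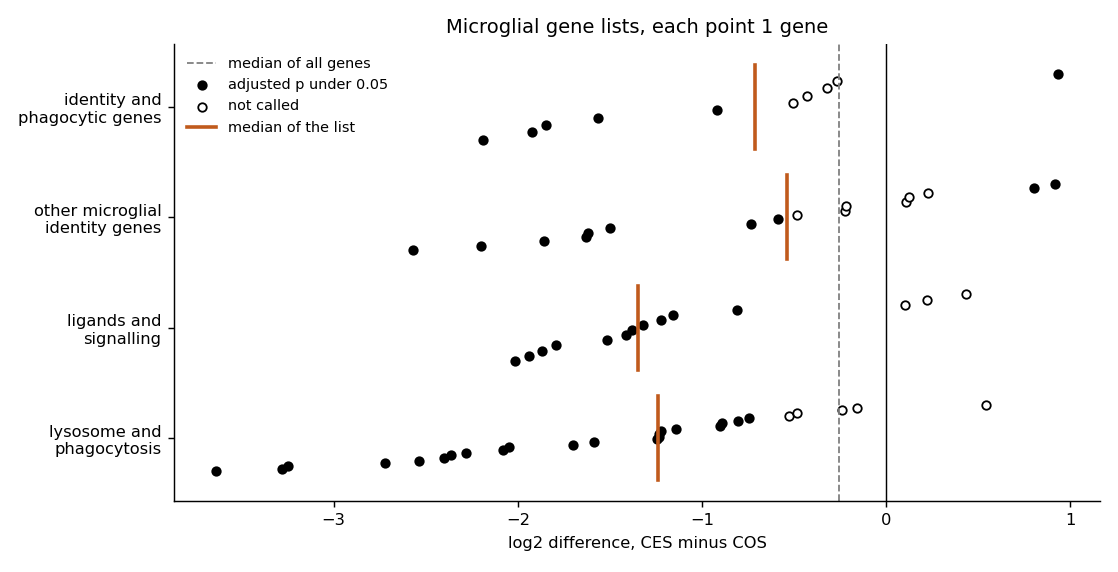
Log2 difference (CES minus COS) of each gene of the 10 and of the 3 further microglial lists, filled where the limma adjusted p is under 0.05, with the median of each list (orange) and of all genes (dashed, −0.25). The medians lie at −0.71, −0.54, −1.35 and −1.24 from top to bottom, and P2ry12, P2ry13 and Selplg are the filled points right of 0.

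Markers of other cells that share these genes were read beside them. Of 10 genes of monocytes and neutrophils, 2 could be tested. Plac8 fell (−2.18, limma adjusted p = 0.00888), and Camp (0.38) was not called. Plac8 was the only gene of this list well above background in all 8 rats, with mean levels of 2.40 in COS and 0.22 in CES. Ccr2, Mpo and Cxcr2 were not well above background in any rat, and S100a8 and S100a9 were so in 3 COS rats and 1 CES rat. Csf3r was so in 1 COS and 2 CES rats. The summed log2 level of this list was 2.34 to 3.81 among COS and 0.28 to 1.77 among CES rats. How far Plac8 alone sets this sum was not tested. Of 4 border macrophage genes tested, Pf4 (−1.20) and Lyve1 (−0.69) fell, Mrc1 (−0.43) and Clec10a (−0.61) were not called, and Cd163 was not well above background in any rat. Their summed level was 1.96 to 2.53 in the COS rats and 0.98 to 1.82 in the CES rats. Both sums were lower in every CES rat than in every COS rat, as for 5 of the 10 genes above, and their part in those differences was not tested.

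Of 12 genes of T, B and NK cells, 4 could be tested, and Lck (−0.52) and Nkg7 (−0.72) fell. Lck was well above background in 2 rats of each group and Nkg7 in 1 of each. Cd3d, the only gene of the list well above background in all 8 rats, differed by 0.0070 (limma adjusted p = 0.981), and Cd3e was not called. Cd4, Cd8a and Cd79a were not well above background in any rat. The summed level of this list overlapped between the groups, with 1.08 to 2.79 in the COS rats and 1.17 to 2.18 in the CES rats.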

How the data were processed

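RNA from the dentate gyrus of 8 rats, 4 COS and 4 CES, was measured on 4 two-colour arrays. The authors deposited, per the file headers, the mean intensity and background median intensity of each spot as Agilent Feature Extraction 10.7.3.1 gave them, before normalization. Their deposited log2 values, which are relative to each channel, served as an alternative. Both files of an array are identical, and each rat was read from its own dye. Groups, replicates and dyes come from the labels. Replicates were different rats.

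Following the methods, the background-subtracted intensity of spots valid in all 8 rats (foreground 2 or more times background) was divided by the median valid spot of the channel, averaged over the spots of a gene name and taken to log2. The methods' later renormalization, repeated across labels and conditions, needs groups not analysed here and was not done. Spots marked as outliers were kept; none of the 10 genes had one, and none was saturated. CES and COS were compared by limma 3.58.1 (statmod 1.5.0 and version 1.17.8 of data.table, R 4.3.3), whose array correlation was −0.0064. The number of arrays limits precision, with a median standard error of 0.20. Figures used Python 3.11.15, pandas 2.3.3, numpy 2.4.6 and matplotlib 3.10.9. The fit was tested on simulated data.

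All 10 genes were named, with the 3 largest called differences of each programme list and the 5 names most like their median over the rats. Olfml3, Tmem119, P2ry13, Selplg and the further programme genes given singly were chosen after their values were seen. Marker genes were named where called or dim. Some genes that these rules would name are not reported here. The genes and lists were chosen with earlier results of these data known. A called gene not well above background in any rat of a group was also set against the lowest signals well above background. Overlap of the groups relative to each rat's median of all genes was added after the values were seen. Lists also covered blood cells, border macrophages, astrocytes, neurons, oligodendrocytes, endothelium and choroid plexus. Their summed levels use all spots, with signals floored at 0.02 of the channel median. The 26 alternatives covered background correction (normexp offset 50), normalization, spot filters (including 3 times background), dye, array and replicate blocks, probe choice and naming, the methods' t-test, the deposited log2 table and each rat left out.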

Additional observations from a re-analysis of the deposited data

How the results depend on the processing

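With all 8 rats, 5 of the 10 genes were lower and 1 higher in CES, with 40 programme genes lower and 2 higher. Where counts moved, loess with Aquantile gave 2 genes and 20 programme genes lower, quantile 3 and 24, scaling over spots valid in all rats 2 and 21, and the authors' deposited log2 values 2 and 23, with 4 programme genes higher under the last 3. All genes called split into 6038 lower and 1238 higher, and into 1843 and 3157 after loess, 2221 and 3055 after quantile, 1718 and 3348 after common scaling and 1927 and 3275 in the deposited table, where the median of all genes was 0.06 to 0.15. The processed signal gave 7 of the 10 genes lower, adding Aif1 and Cx3cr1, where 26.3% of all genes were lower. Normexp left 2 of the 10 genes and 14 programme genes lower and 0 and 0 higher. Of all genes it left 2.16% lower and 0.586% higher. The Cy5 rats alone gave 0 for all 4 counts by limma, with 2 lower and 0 higher of all 21332 genes. The methods' t-test also gave 0 for all 4 counts and called none of all genes. In the Cy5 rats 3 of the 10 genes, and 2930 of all genes, had an unadjusted p under 0.05. By the t-test these counts were 6 and 6103. No programme gene was higher with a foreground of 3 times background or well above background in all rats, where 47 and 41 were tested. Of all genes tested under these filters, 8.18% and 9.22% were higher. Without a filter 1 programme gene was higher and 30 were lower, against 1.31% and 8.56% of all genes. Leaving out each rat in turn gave 0 to 6 of the 10 genes lower and 0 to 1 higher, and 9 to 43 programme genes lower and 0 to 3 higher. Of all genes, 4.28% to 32.9% were then lower and 1.20% to 8.7% higher. The median difference of the 10 genes was −0.86 to −0.52 (−0.56 to −0.32 relative to all genes). The lowest counts lower came without COS replicate 3. The sign of Trem2 turned in the Cy5 rats (0.039), the deposited table (0.11), loess (0.035), quantile (0.043) and common scaling (0.13), and that of Aif1 in the deposited table (0.070) and common scaling (0.077). The cause of these moves was not tested. Of 257 values of single genes under alternatives, 209 kept sign and call, 36 lost the call, 5 gained one and 7 turned. The replicate number as a block in place of the dye gave 5 lower and 1 higher, and 39 and 2 programme genes, against 28.7% and 5.04% of all genes. Same-numbered rats share only a number: their deviations correlated at 0.21 to 0.34, but at −0.06 and −0.04 within a dye. The filter on spots well above background left Spi1 and Ptprc untested, and 3 times background left Ptprc untested. Signal over background limits Ptprc, Spi1 in CES, P2ry13, Selplg and Tmem119. It also limits Lcp1, Vav1, Syk, Pros1, Flt1, Dsp and Olfml3, each well above background in only 2 of 4 CES rats.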

Other observations

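The other cell types of the dentate gyrus gave mixed directions. Of 10 astrocyte genes tested, Gjb6 (2.27), Gja1 (1.27), Aldh1l1 (1.23) and Aldoc (0.92) rose in CES, which are connexins and metabolic enzymes, while the calcium-binding S100b (−2.22) and glutamine synthetase Glul (−0.77) fell, all as log2 differences with a limma adjusted p under 0.05. The summed level of the list was 8.24 to 8.48 among COS and 8.08 to 8.77 among CES rats. Of 8 neuronal genes tested, C1ql2, a synaptic protein of granule cells (−1.23), the desmosomal Dsp (−1.24) and the neurofilament Nefl (−0.82) fell and the vesicle protein Syt1 (0.59) rose. Prox1, the granule cell transcription factor, was not well above background in any rat, and the sum was 8.56 to 8.96 in the COS rats and 8.51 to 8.82 in the CES rats.

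None of 8 oligodendrocyte genes tested was called by limma, and their sum was 7.84 to 8.69 in the COS rats and 8.26 to 8.89 in the CES rats. Of 7 endothelial genes tested, Vwf (−2.01), Flt1 (−1.04) and Tek (−0.81) fell and none rose, with Pecam1 not well above background in any rat and sums of 4.66 to 5.14 and 3.93 to 4.71. None of 5 choroid plexus genes tested was called, and their sum was 3.71 to 9.27 among COS rats, with COS replicate 2 the highest, and 4.03 to 7.60 among CES rats. None of these lists had every CES rat below every COS rat in its sum, and their part in the differences of the microglial genes was not tested.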
